A study of Mus musculus with 12 samples.

Results

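The transcripts of 5 alpha-arrestin genes, Arrdc1, Arrdc2, Arrdc3, Arrdc4 and Txnip, were followed in natural killer (NK) cells and CD8 T cells that had infiltrated mouse tumors. The genes were taken by name from a table of 54232 genes, and the set was chosen by the counts of Arrdc4, which lay at the floor in wild-type CD8 T cells and not in mutant ones. All 5 passed the filter on low counts, a mean normalized count of 10 over the libraries, which kept 13284 genes. Arrdc5, the remaining gene of that name, had 0 counts in all 12 libraries. All 5 are protein coding genes (GRCm38). Arrdc4 (ENSMUSG00000042659) lies on chromosome 7 from 68736995 to 68749241 on the minus strand, and Txnip (ENSMUSG00000038393) on chromosome 3 from 96557957 to 96561883 on the plus strand. Arrdc3 (ENSMUSG00000074794) spans 80883384 to 80896042 of chromosome 13, plus strand. Arrdc1 (ENSMUSG00000026972) spans 24925352 to 24935252 of chromosome 2, and Arrdc2 (ENSMUSG00000002910) 70835129 to 70839720 of chromosome 8, both on the minus strand.

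The cells came from tumors that grew for 8 to 10 days after transplantation of MC38, a mouse colon adenocarcinoma line. NK cells were sorted as CD45+, CD3ε-, NK1.1+ and CD8 T cells as CD45+, CD3ε+, CD8a+, and each RNA library was made from 300 cells. Mice were C57BL/6N wild type (WT), carried a Tyk2 null allele (Tyk2-/-, KO), or carried Tyk2 K923E (KE), a point mutation after which the Janus kinase TYK2 is made without kinase activity. Both alleles were constitutive, so TYK2 was missing or inactive in all cells of the host and not in lymphocytes alone, while the transplanted tumor cells were the same line in all mice. Mice were matched for sex and age. Each of the 6 groups (NK or CD8, by WT, KO or KE) held 2 libraries. The labels do not say whether the 2 came from separate mice, so p-values measure only the spread between these libraries, which may be technical.

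Alpha-arrestins share the arrestin fold with the beta-arrestins that bind active receptors, but most of them act as adaptors: they bind a membrane protein and recruit a ubiquitin ligase of the NEDD4 family, after which the membrane protein is internalized. TXNIP binds and inhibits thioredoxin, and TXNIP and its closest relative ARRDC4 lower glucose uptake by removing glucose transporters such as GLUT1 from the cell surface. Both genes are classic targets of MondoA and ChREBP, transcription factors that pair with MLX, respond to glucose phosphates and bind E-box-like motifs. ARRDC3 is best known for its action on beta-adrenergic receptors and integrins, ARRDC1 for the budding of small vesicles from the plasma membrane, and ARRDC2 is less well studied.

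The promoters of Txnip and Arrdc4 carry letters of the kind bound by the MondoA and ChREBP family, and they are shown for that reason. The sequences are the 250 bases before the RefSeq start of each gene (GRCm38.p6), written 5′ to 3′ on the strand of the gene with the matches in capitals. The first runs over chr3:96557707-96557956 on the plus strand and the second over chr7:68749239-68749488 on the minus strand.
Txnip: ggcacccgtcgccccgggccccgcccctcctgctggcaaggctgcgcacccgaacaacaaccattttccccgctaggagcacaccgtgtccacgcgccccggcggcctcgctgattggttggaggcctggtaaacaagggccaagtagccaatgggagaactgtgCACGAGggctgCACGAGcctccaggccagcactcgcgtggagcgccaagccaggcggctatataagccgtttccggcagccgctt
Arrdc4: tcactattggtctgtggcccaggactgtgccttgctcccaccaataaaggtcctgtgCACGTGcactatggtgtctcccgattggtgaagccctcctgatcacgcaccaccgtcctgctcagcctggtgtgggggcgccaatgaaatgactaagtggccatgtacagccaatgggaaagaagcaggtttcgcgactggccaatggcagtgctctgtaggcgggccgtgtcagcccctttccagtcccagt

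The capitals in Txnip mark 2 half-sites, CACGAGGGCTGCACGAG when joined with the 5 bases between them, from 85 to 69 bases before the start. A pair of half-sites CACGNG in either orientation, 5 bases apart, was the layout searched on both strands, and 24 of 32851 mouse promoters of this length held one (0.0731%). The capitals in Arrdc4 mark an E-box, CACGTG, whose first base lies 193 bases before the start. An E-box was found in 1978 of the 32851 promoters (6.02%), and its letters are also 1 half-site. Arrdc4 held no such pair in this window, and Arrdc1, Arrdc2 and Arrdc3, the last with 3 RefSeq starts, held neither layout. These are matches of letters, and binding was not measured.

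Total counts per library ranged from 10378761 to 14732882, and 12776 to 14015 genes had at least 1 count. A count of 3, taken as the detection floor of a library, corresponded to 0.218 to 0.276 CPM (counts scaled to a library total of 1e6, after TMM normalization). The sort markers followed the labels: Cd8a lay at 2.69 to 4.54 CPM in the NK libraries and at 2820 to 4070 CPM in the CD8 libraries, and Klrb1c, which encodes NK1.1, at 1060 to 2250 CPM and 1.42 to 5.04 CPM. Tyk2 did not separate the genotypes (46.6 to 119 CPM over the 12 libraries), so KO and KE stand for the labels. The summed level of 10 macrophage and monocyte genes differed between genotypes. In NK cells the 2 WT libraries summed to 7650 and 8240 CPM, the KO libraries to 424 and 5327 CPM, and the KE libraries to 593 and 736 CPM. The CD8 sums were 3051 and 4894 CPM for WT, 709 and 949 CPM for KO, and 1589 and 1768 CPM for KE. At most 1 of the 10 genes was at 0 in both libraries of any group, and the part of such cells in the genotype differences described here was not tested. Of 5 neutrophil genes at least 4 were at 0 in both libraries of every group. The summed level of 6 epithelial genes was 0 to 51.4 CPM in the NK and 0 to 26.6 CPM in the CD8 libraries. Krt8, Krt19 and Cldn4 were at 0 in all 12 libraries and Krt18 in 11, while Epcam exceeded the floor in 6 libraries and Cdh1 in 7. The summed level of 6 stromal and endothelial genes was 102 to 294 CPM in the NK and 6.04 to 104 CPM in the CD8 libraries. Most of the NK sum was Pecam1 (101 to 262 CPM), which leukocytes also express, while Col1a2 and Pdgfrb were at 0 in all 12 libraries. In bulk libraries, fewer cells with a transcript and less transcript per cell cannot be told apart.

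Arrdc4 ranged from 0 to 108 CPM over the 12 libraries. In CD8 WT cells 0 and 1 reads were counted, in CD8 KO 318 and 455, and in CD8 KE 520 and 935. These are 0 and 0.0727 CPM in WT, 24.0 and 37.9 CPM in KO, and 43.4 and 68.3 CPM in KE. Both WT libraries thus lay under the floor of 3 counts and all 4 mutant CD8 libraries far over it. The mutant level was 141 times the WT floor in KO (109 and 172 by library) and 254 times in KE (198 and 311). Against the single WT count itself the ratio was 836 in KO (exact 95% interval 150 to 33100) and 1550 in KE (277 to 61200). These intervals treat reads as independent, and leave out amplification and the spread between libraries. These values chose the gene and are a description without a test. The same contrasts called 7 of the 13284 genes in KO (0.0527%) and 11 in KE (0.0828%), where a call in edgeR needed a false discovery rate (FDR) under 0.05 together with a change of 1 or more on the log2 scale in either direction. Among the CD8 libraries the macrophage and monocyte sum was highest in the 2 of WT, in which Arrdc4 was at the floor, and its part was not tested.

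In NK cells Arrdc4 was over the floor in all 6 libraries. NK WT libraries held 533 and 335 Arrdc4 reads (44.3 and 25.7 CPM), a level inside the range of the mutant CD8 libraries. NK KO libraries held 1390 and 1177 reads (108 and 87.6 CPM), above all other libraries. NK KE libraries differed from each other, with 169 and 908 reads (15.6 and 69.0 CPM), and spanned both NK WT libraries. Ordered by mean, NK KO (98.0 ± 14.7 CPM, SD, n = 2) came first, before CD8 KE (55.8 ± 17.6), NK KE (42.3 ± 37.8), NK WT (35.0 ± 13.1), CD8 KO (30.9 ± 9.81) and CD8 WT. NK KO and CD8 WT stood clear of their neighbors in this order, while CD8 KE, NK KE, NK WT and CD8 KO each overlapped a neighbor.

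In NK cells Arrdc4 was 2.80-fold higher in KO than in WT, with no overlap of the libraries, but the difference did not pass the test (log2 fold change 1.48, SE 0.84, edgeR FDR 0.764). KO lay above KE there (log2 fold change 1.21, SE 0.84, FDR 1) with no overlap. That value was 0.53 without NK KE replicate 1 and 2.64 without NK KE replicate 2. NK KE against WT gave 0.27 (SE 0.83, FDR 1), with -1.18 without NK KE replicate 2 and 0.94 without NK KE replicate 1. In CD8 cells the order of the mutants was the opposite, with KO below KE and no overlap (log2 fold change -0.85, SE 0.83, as a description, since CD8 levels chose the gene). Whether the mutant difference differed between the cell types was not tested. Of all genes, 0 were called in NK KO against WT, in NK KE against WT, in NK KO against KE or in CD8 KO against KE (0% each). At an unadjusted p under 0.05 the counts were 840, 796, 504 and 477, and DESeq2 called 379, 389, 204 and 157 genes but no tested member in any of these comparisons.

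**Figure D1:**
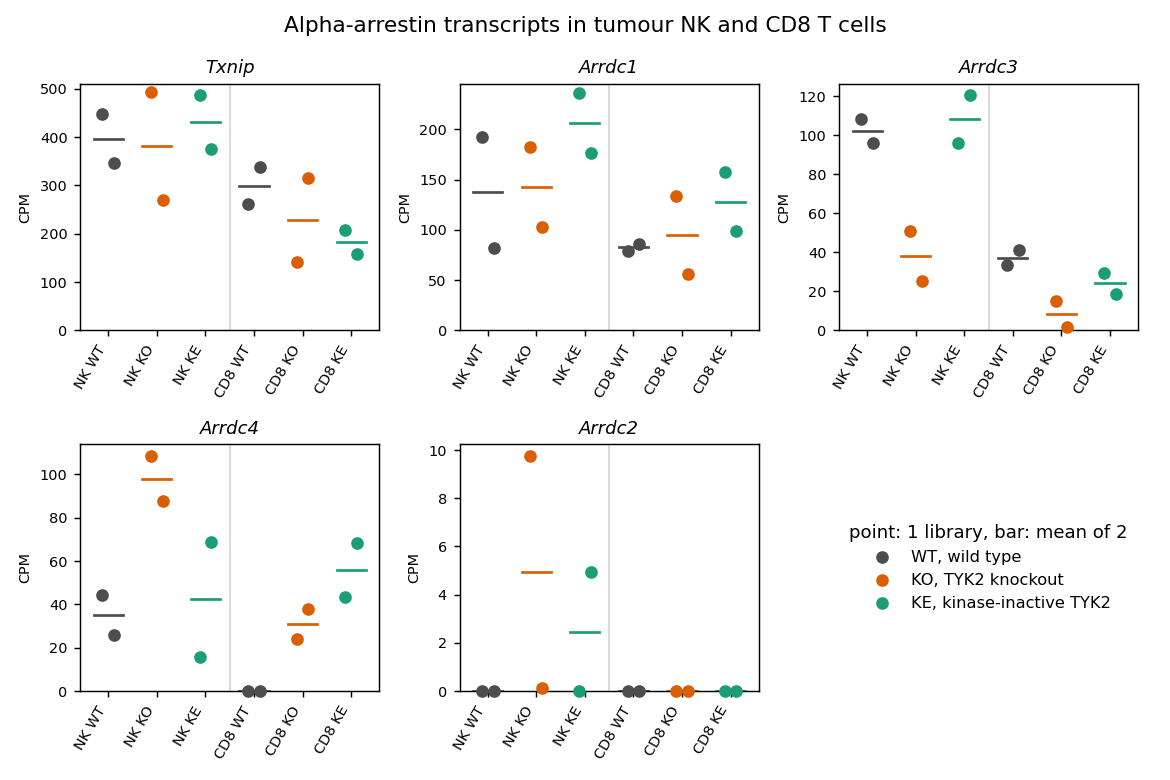
Level of each alpha-arrestin (CPM, linear axes from 0) in the 12 libraries; points are libraries, horizontal bars the mean of 2. Arrdc4 is at 0 and 0.0727 CPM in CD8 WT and at 24.0 to 68.3 CPM in the mutant CD8 libraries, and Arrdc3 is lower in KO than in KE in both cell types.

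Genes absent from one group and abundant in the others of its cell type were counted to place the CD8 WT value. With at most 3 counts in both libraries of a group and at least 100 in each of the other 4 libraries of that cell type, CD8 WT held 7 genes. Among them were Arrdc4, Cd151, Msantd2, Slc2a8, Trim5 and Vsig10l, named after their values were seen. The other groups held 4 to 13 such genes (NK WT 11, NK KO 13, NK KE 4, CD8 KO 6, CD8 KE 10), out of 9406 genes with at least 100 counts in 4 or more libraries. The number for CD8 WT lay inside the range of the other groups. When all 10 other libraries had to hold at least 100 counts, 2 genes remained for CD8 WT, Arrdc4 and Trim5, and 0 to 3 for the other groups.

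Across the 12 libraries the gene most like Arrdc4 was Trim5 (Pearson's r 0.97 of log2 CPM), of the tripartite motif family of antiviral restriction factors. Trim5 has close relatives in the mouse genome and only uniquely aligned reads were counted, so its level is uncertain. It was counted 1 and 2 times in CD8 WT and 223 to 534 times in the mutant CD8 libraries. Next came Cyp20a1 (r 0.936), a cytochrome P450, Uqcc1 (0.929), an assembly factor of respiratory complex III, Cd151 (0.905), a tetraspanin, and Polr3d (0.901), a subunit of RNA polymerase III. All 5 had their lowest group mean in CD8 WT (0.0736 to 1.21 CPM) against 12.7 to 79.1 CPM in the other groups. The 12 points share the low CD8 WT group and the libraries themselves, and the correlations are a description. With a prior count of 0.5 in place of 2, 4 of the 5 stayed.

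**Figure D2:**
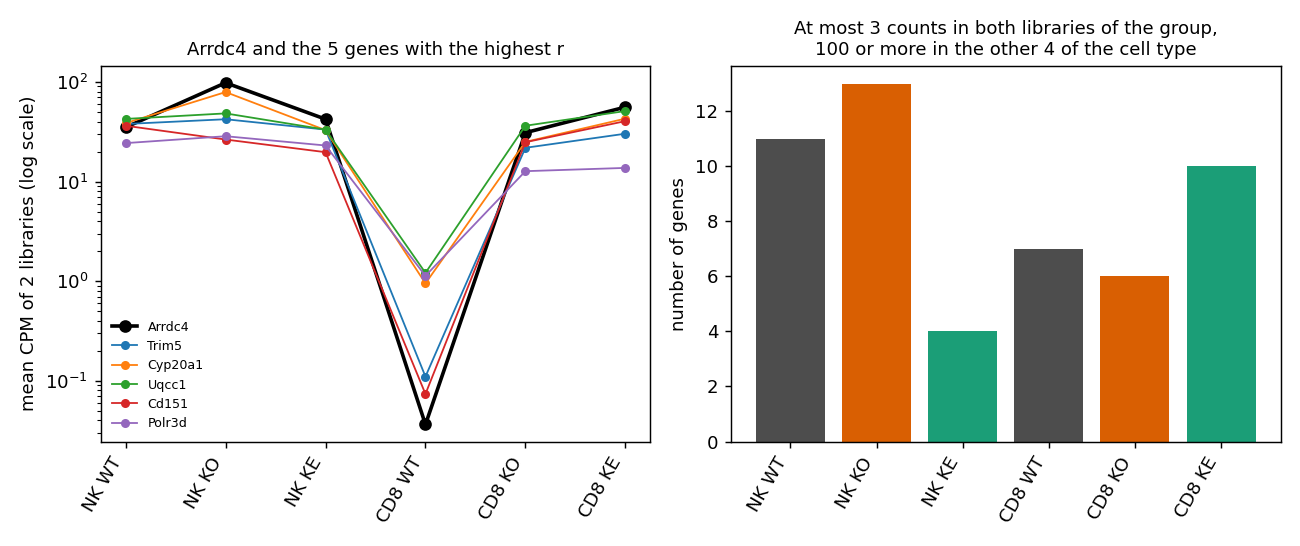
Left, mean CPM of 2 libraries (log scale) of Arrdc4 and the 5 genes with the highest Pearson's r to it; all 6 are lowest in CD8 WT, between 0.0364 and 1.21 CPM. Right, number of genes with at most 3 counts in both libraries of a group and at least 100 in the other 4 libraries of that cell type; CD8 WT has 7 and the other groups 4 to 13.

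Txnip was the most abundant member per length in 9 of the 12 libraries. In CPM per kilobase of exon its group means ran from 64.7 to 152, those of Arrdc1 from 49.5 to 124, of Arrdc3 from 2.05 to 26.1, of Arrdc4 from 0.00900 to 24.3 and of Arrdc2 from 0 to 2.10. In the other 3 libraries, CD8 KO 1 and both CD8 KE libraries, Arrdc1 exceeded Txnip on this scale. Txnip made up 35.9% to 72.1% of the 5 members' summed level per length.

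Unlike Arrdc4, Txnip was well expressed in CD8 WT cells. Its levels there were 261 and 337 CPM, against 142 and 316 CPM in CD8 KO and 208 and 158 CPM in CD8 KE. Both KE libraries lay below both WT libraries, while the KO libraries overlapped those of WT. As a description, the log2 fold changes were -0.71 (SE 0.40) in KE and -0.39 (SE 0.40) in KO, and the latter was -1.07 without CD8 KO 2 and 0.08 without CD8 KO 1. As a description, Pearson's r of Arrdc4 and Txnip (log2 CPM) was -0.577 over the 6 CD8 libraries, -0.258 over the 6 NK libraries and 0.017 over all 12 (Spearman's rho 0.224). The 12 points mix cell types that differ in the level of Txnip.

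In NK cells Txnip was at 447 and 346 CPM in WT, 493 and 270 CPM in KO, and 486 and 376 CPM in KE. All 3 groups overlapped. The log2 fold change of KO was -0.06 (95% interval -0.94 to 0.83, FDR 1). That of KE was 0.12 (95% interval -0.77 to 1.01, FDR 1), so these intervals leave room for sizeable changes in either direction. KO and KE did not pass the test against each other in NK cells (log2 fold change -0.18, SE 0.40, FDR 1) or in CD8 cells (0.32, SE 0.40, FDR 1; -0.36 without CD8 KO 2). A long non-coding gene on the opposite strand, Gm15441, overlaps Txnip exons. It held 0 to 99 counts per library against 1883 to 6321 for Txnip, and since the sources used here do not say that counting used strand, reads of the pair cannot be told apart.

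Between cell types Txnip was higher in NK than in CD8 cells by mean in each genotype. The libraries did not overlap in WT (log2 fold change 0.41, SE 0.40, FDR 0.802) or KE (1.24, SE 0.41, FDR 0.303), and overlapped in KO (0.74, SE 0.40, FDR 0.577; 1.42 without CD8 KO 2). No member was called in these comparisons, which called 103 genes in WT (0.775%), 119 in KO (0.896%) and 109 in KE (0.821%). Txnip in KE passed the threshold when genes of low count were kept in the fit (FDR 0.0355), which called 498 genes there, and missed it in DESeq2 (FDR 0.0579). The genes most like Txnip across the libraries were Rnf216 (Pearson's r 0.899), a ubiquitin ligase, Soat2 (0.889), which esterifies cholesterol, Eya2 (0.88), Sulf2 (0.866), an extracellular sulfatase, and Rcsd1 (0.858). All 5 had a higher mean in NK than in CD8 cells of the same genotype. With a prior count of 0.5, 4 of the 5 stayed.

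Arrdc3 was the member whose KO libraries stood below both other genotypes in each cell type. It was measured at 109 and 96.1 CPM in NK WT, at 50.8 and 25.3 CPM in NK KO, and at 96.4 and 121 CPM in NK KE. In CD8 cells it lay at 33.6 and 41.0 CPM in WT, 15.2 and 1.75 CPM in KO, and 29.3 and 18.9 CPM in KE. The KO libraries did not overlap the WT or the KE libraries of their cell type. By mean, Arrdc3 ran from NK KE (109 ± 17.2) and NK WT (102 ± 8.83), which overlapped, through NK KO (38.1 ± 18.1) and CD8 WT (37.3 ± 5.26), which also overlapped, to CD8 KE (24.1 ± 7.35) and CD8 KO (8.50 ± 9.55).

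None of the single genotype tests of Arrdc3 passed. In NK cells KO was 2.69-fold below WT (log2 fold change -1.43, SE 0.84, FDR 0.764; -2.03 without NK KO 1) and 2.85-fold below KE (-1.51, SE 0.84, FDR 1), while KE and WT differed by 0.08 (95% interval -1.73 to 1.90, FDR 1). In CD8 cells KO was 2.83-fold below KE (-1.50, SE 0.84, FDR 1), and -3.78 without CD8 KO 1 and -0.66 without CD8 KO 2. As a description, CD8 KO against WT was -2.13 (SE 0.86; -4.41 without KO 1 and -1.29 without KO 2) and CD8 KE against WT -0.63 (SE 0.82). An average of KO against KE over both cell types, added after these values were seen, gave -1.51 (SE 0.59, unadjusted p 0.0286, edgeR FDR 0.975), where 0 genes were called (0%), 657 had an unadjusted p under 0.05 and DESeq2 called 183, none of them a member. It was -2.64 without CD8 KO 1 and -1.09 without CD8 KO 2. The macrophage and monocyte sums of KO and KE libraries overlapped in NK cells (424 and 5327 against 593 and 736 CPM) and were lower in KO in CD8 cells (709 and 949 against 1589 and 1768 CPM), and their part was not tested.

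Arrdc3 was higher in NK than in CD8 cells in every genotype, with no overlap of the libraries. The log2 fold change in WT was 1.46 (SE 0.84, FDR 0.563), with 2.16 for KO (SE 0.86, FDR 0.443), and with 2.17 for KE (SE 0.86, FDR 0.429). The KO value was 4.44 without CD8 KO 1, 1.32 without CD8 KO 2 and 1.53 without NK KO 1. The stromal and endothelial sum was also higher in NK cells of each genotype, without overlap, and its part was not tested. The mean over genotypes, a comparison added after these values were seen, was 82.96 CPM in 6 NK libraries and 23.3 CPM in 6 CD8 libraries. Its log2 fold change of 1.93 (SE 0.49, edgeR FDR 0.0487) passed the threshold, by a narrow margin: leaving out 1 library ended the call for 10 of the 12 libraries (FDR 0.0585 to 0.128), all but CD8 KO 1 and CD8 KO 2. The value was 2.69 without CD8 KO 1. DESeq2 gave an FDR of 0.00157, while the replicate number as a block in edgeR ended the call. That comparison called 602 genes (4.53%). In it Txnip had a log2 fold change of 0.79 (SE 0.23, edgeR FDR 0.0839) and Arrdc1 of 0.67 (SE 0.31, edgeR FDR 0.265), and neither was called. In DESeq2 Txnip had an FDR of 0.0138 and fell short of a call by its fold alone (log2 fold change 0.80), while Arrdc1 had an FDR of 0.199. Without CD8 KO 2, Txnip reached 1.02 (FDR 0.0325) and was called as well.

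**Figure D3:**
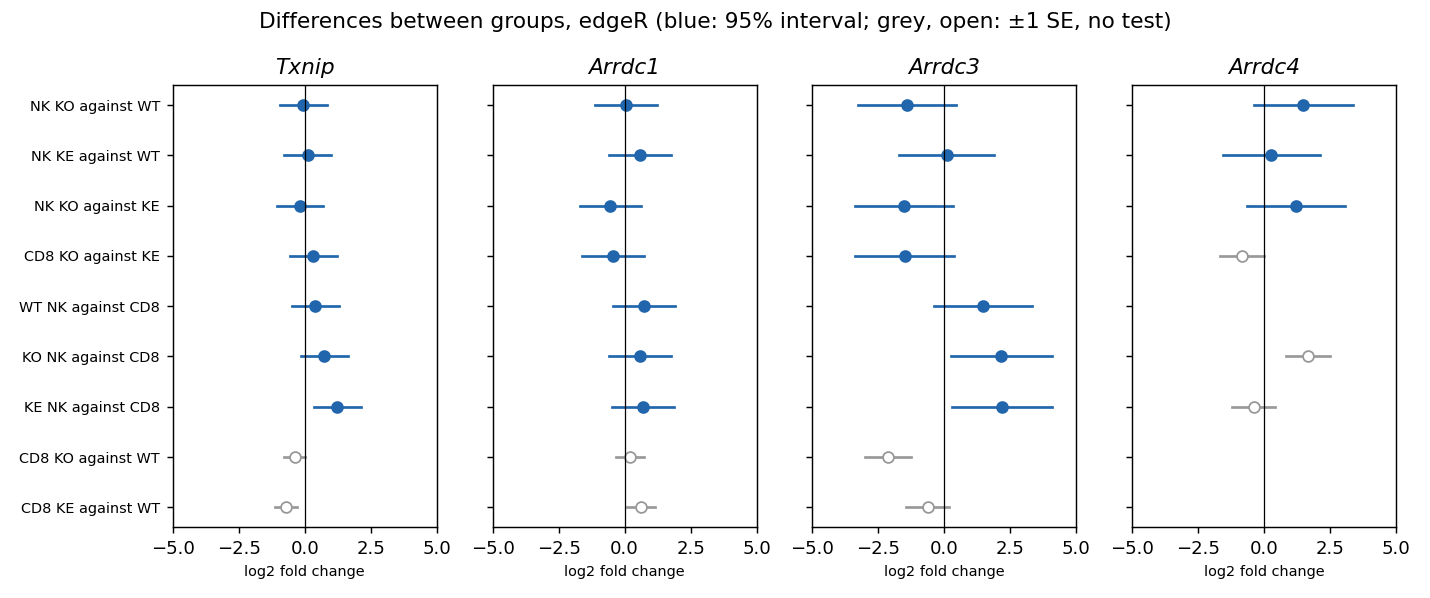
Fitted log2 fold change of 4 members in 9 comparisons (horizontal axes); filled blue points carry 95% intervals, open grey points the range of 1 SE either side and no test. Arrdc3 is above 0 in all 3 comparisons of NK with CD8 cells (1.46, 2.16 and 2.17), and no member was called in the tested ones of these 9 comparisons; Arrdc4 is left out where CD8 WT is a group.

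Arrdc1 was detected at a similar order of level in every library. It lay at 193 and 81.8 CPM in NK WT, 182 and 103 CPM in NK KO, and 236 and 176 CPM in NK KE. In CD8 cells it lay at 78.9 and 86.0 CPM in WT, 133 and 55.8 CPM in KO, and 157 and 98.8 CPM in KE. Each group overlapped its neighbor in the order of means, from NK KE (206 ± 42.6) down to CD8 WT (82.4 ± 5.01). Groups further apart in this order did not all overlap: CD8 KE lay above CD8 WT, and NK KE above CD8 KE, in all their libraries. As a description, the log2 fold change against CD8 WT was 0.64 (SE 0.53) in KE and 0.20 (SE 0.53) in KO, which overlapped WT. The tested genotype differences ran from a log2 fold change of -0.53 (NK KO against KE) to 0.59 (NK KE against WT), with SEs of 0.53, and FDRs from 0.971 to 1. Without NK WT 1, NK KE against WT gave 1.32 and NK KO against WT 0.80, and without CD8 KO 1, CD8 KO against KE gave -1.20. NK exceeded CD8 cells by 0.59 to 0.74 in the 3 genotypes (FDR 0.65 to 0.786), with a WT value of -0.03 without NK WT 1 and a KO value of 1.35 without CD8 KO 1.

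Arrdc2 was barely detected. It had 0 counts in 9 of the 12 libraries, among them all 6 CD8 libraries and both NK WT libraries. Reads were found in NK KO (125 and 2) and in NK KE replicate 2 (65). Only 2 libraries thus exceeded the floor, 1 of each mutant, and no fold change is given.

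The genes around these adaptors were read from lists by counts and medians, without a test of a list as a whole. Single genes of the lists are named by the rule given with the processing, or are marked. For the glucose transporters and first steps of glycolysis, 10 genes were tested, and the median over all genes was 0 in each genotype comparison. In NK cells 9 of the 10 had a lower fitted level in KO than in WT (median log2 fold change -0.90) and 9 of 10 in KE than in WT (median -1.38), with 0 called by edgeR in either. The comparisons share the WT libraries. At an unadjusted p under 0.05, 2 genes in KO and 3 in KE were lower and 0 higher. DESeq2 called Gpi1 in KO, and Gpi1, Slc2a1 and Slc2a3 in KE, all lower. In CD8 cells the medians against WT were -0.68 in KO and -0.93 in KE, with 7 of 10 genes lower in each; these contrasts chose the set and are given without a test.

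Slc2a1, Slc2a3 and Slc2a8 encode the transporters GLUT1, GLUT3 and GLUT8, and Gpi1 encodes glucose-6-phosphate isomerase; these 4 are named after their values were seen. TXNIP and ARRDC4 act on the GLUT1 protein, which was not measured. Slc2a1 RNA lay at 518 and 257 CPM in NK WT, 238 and 244 CPM in NK KO and 95.4 and 129 CPM in NK KE. In CD8 cells it lay at 552 and 318 CPM in WT, 242 and 187 CPM in KO, and 126 and 137 CPM in KE. WT libraries were the highest and KE the lowest in both cell types, without overlap. The macrophage and monocyte sum was also highest in both WT libraries of each cell type, and its part was not tested. NK KE against WT gave -1.79 (SE 0.38, edgeR FDR 0.255; DESeq2 FDR 0.00106; without the filter on low counts FDR 0.000939) and NK KO against WT -0.69 (SE 0.37, FDR 0.764; -0.10 without NK WT 1). As a description, since the CD8 levels of Arrdc4 chose the set, Arrdc4 and Slc2a1 ranked the CD8 groups in opposite order. Arrdc4 was lowest and Slc2a1 highest in CD8 WT, while in NK cells Slc2a1 was lowest in KE and Arrdc4 highest in KO. A relation between the 2 genes was not tested. Slc2a3 lay at 207 and 83.4 CPM in NK WT, 101 and 73.5 CPM in NK KO, and 28.9 and 39.7 CPM in NK KE (KE against WT -2.08, SE 0.55, FDR 0.471; -1.30 without NK WT 1). Gpi1 lay at 1014 and 583 CPM in NK WT, 353 and 408 CPM in NK KO (-1.07, SE 0.27, FDR 0.569), and 315 and 357 CPM in NK KE (-1.25, SE 0.27, FDR 0.297). In NK cells WT and KO overlapped for Slc2a3, while both WT libraries were the highest for Gpi1. In CD8 cells the WT libraries were the highest for both genes, with 282 and 406 CPM for Slc2a3 and 921 and 1045 CPM for Gpi1. Slc2a8 had 1 count in each CD8 WT library and 122 to 328 in the mutant CD8 libraries. In NK cells it was counted 55 and 0 times in WT, 355 and 1 times in KO, and 308 and 492 times in KE.

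**Figure D4:**
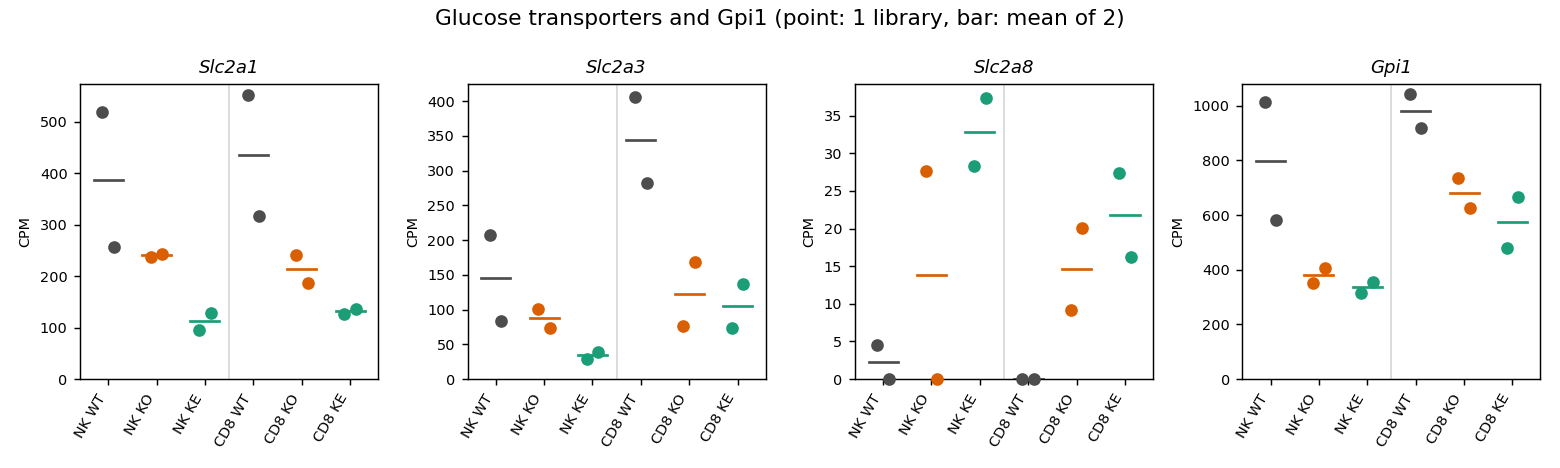
Level (CPM, linear axes from 0) of 3 glucose transporter genes and Gpi1 in each library; points are libraries and bars the mean of 2. Slc2a1 is highest in WT (257 to 552 CPM) and lowest in KE (95.4 to 137 CPM) in both cell types, and Slc2a8 has 1 count in each CD8 WT library.

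Txn1, which encodes the thioredoxin that TXNIP inhibits, was lower in NK than in CD8 cells, opposite to Txnip. It lay between 242 and 343 CPM in the NK libraries and between 536 and 679 CPM in the CD8 libraries. The log2 fold change was -0.97 in WT, -0.91 in KO and -1.03 in KE (edgeR FDR 0.0816, 0.103 and 0.065). In the average over genotypes it was -0.97 (SE 0.12, FDR 0.0012), just short of the fold needed for a call, and reached that fold without NK WT 2 (-1.02), NK KO 1 (-1.05), NK KE 2 (-1.06) or CD8 WT 2 (-1.004). Of the 17 genes of the thioredoxin and peroxiredoxin system, 0 were called by edgeR in the tested comparisons of 2 groups, where 0 to 5 had an unadjusted p under 0.05. DESeq2 called Txnrd3 in KO and Prdx2, Txn1 (FDR 0.000854) and Txnrd1 in KE between cell types, and none between genotypes. In the average, Txnrd1, a thioredoxin reductase, was higher in NK cells (115 ± 50.6 against 53.6 ± 10.8 CPM, SD, n = 6; log2 fold change 1.00, FDR 0.0391; by genotype 1.37 in WT, 0.21 in KO and 1.42 in KE) and no other gene of the list was called by edgeR. The Txnrd1 call was lost for 11 of the 12 libraries left out in turn, all but CD8 WT 1 (FDR 0.0502 to 0.133).

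Of the MondoA, MLX and MAX network, Mlxip, which encodes MondoA, had group means of 199 to 261 CPM in NK and 155 to 165 CPM in CD8 cells, and Mlx means of 58.6 to 94.3 CPM. Mlxipl, which encodes ChREBP, had 0 counts throughout. None of the 10 genes tested was called by edgeR in a comparison of 2 groups that was tested, with 0 to 5 at an unadjusted p under 0.05. These counts include Mxd3. Mxd3 aside, DESeq2 called Mxi1 in NK KE against WT and in NK KO against KE, and between cell types Mxd1 in KO and KE and Mxi1 in KE. In the average over genotypes, Mxd1 was higher in NK cells (254 ± 68.9 against 96.4 ± 79.8 CPM, FDR 0.0267), and Mxi1 (5.42 ± 4.43 against 36.3 ± 28.8 CPM, FDR 0.0242) was lower. By genotype the log2 fold change of Mxd1 was 0.70 in WT (FDR 0.779), 2.36 in KO and 2.10 in KE, and that of Mxi1 -1.44, -3.36 and -7.41, none of them called by edgeR. Mxi1 lay under the floor in NK KE (0.0760 ± 0.107 CPM). The size of its fold changes with that group, the DESeq2 calls of Mxi1 among them, is therefore uncertain, and that group enters the average. Mxd3, at 0 in NK and 17.2 ± 12.7 CPM in CD8 cells, passed the filter through its CD8 libraries alone and is given without a test. All 3 encode repressors that pair with MAX. With single libraries left out, the call was lost for 8 of 12 in Mxd1 (FDR 0.0533 to 0.0864) and 9 in Mxi1 (0.0537 to 0.0882). The averaged log2 fold change of Mxi1 was -4.07, with -5.15 without NK KE 2 and -3.12 without CD8 KE 2.

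Among 9 tested NEDD4 family ligases and their adaptors, the partners of the alpha-arrestins, Ndfip1 was lower in NK than in CD8 cells in WT (332 ± 16.8 against 1073 ± 125 CPM, SD, n = 2; log2 fold change -1.69, edgeR FDR 0.00204) and in KO (-1.39, FDR 0.0065). In KE it was not called (507 ± 38.1 against 766 ± 101 CPM; log2 fold change -0.59, FDR 0.275). The KO call was lost without NK KO 2 (FDR 0.0558) or CD8 KO 1 (FDR 0.0517), and in a fit to the 2 groups alone (FDR 0.0858). NDFIP1 activates ligases such as ITCH. In the average over genotypes Ndfip1 (-1.23, FDR 0.000122) and Ndfip2 (-1.43, FDR 0.0026) were lower and the ligase gene Nedd4 was higher in NK cells (1.49, FDR 0.00796). No gene of the list was called between genotypes by edgeR or DESeq2 in the tested comparisons, with 0 to 2 at an unadjusted p under 0.05.

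Among the genes of resting lymphocytes, Ccr7, a chemokine receptor, and Il7r, the interleukin-7 receptor, differed between the cell types in the average over genotypes. Both were lower in NK cells, Ccr7 by a log2 fold change of -4.15 (edgeR FDR 0.0091) and Il7r of -1.81 (edgeR FDR 0.0439). By genotype the Il7r value was -3.43 in WT, -1.75 in KO and -0.25 in KE (124 ± 98.97 against 146 ± 56.7 CPM), none of them called by edgeR, and DESeq2 called Il7r in WT and in NK KE against WT. The Ccr7 value was -5.26 in WT, -2.52 in KO and -4.66 in KE, also not called by edgeR, while DESeq2 called it in WT and KE. The averaged Ccr7 value was -5.54 without NK WT 1 and -4.84 without NK KO 2. Its call was lost without NK KE 1 (FDR 0.0556), and that of Il7r for 9 of the 12 libraries (FDR 0.0616 to 0.131), all but NK KO 2, NK KE 1 and CD8 WT 2. Of the other arrestin-fold genes (6 tested), the AMP-activated protein kinase subunits and LKB1 (6 tested), of which the kinase phosphorylates TXNIP, and the glucocorticoid response genes (8 tested), 0 were called in any tested comparison by edgeR or DESeq2, with at most 1 gene of a list at an unadjusted p under 0.05. Their medians between genotypes in NK cells ran from -0.04 to 0.63, and in CD8 KO against KE they were 1.06, 0.06 and -0.60.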

How the data were processed

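RNA was sequenced from 12 libraries of 300 sorted cells by Smart-seq2, which amplifies polyadenylated RNA. The authors used Trimmomatic on single-end reads of 50 bases and STAR for alignment to mm10, and counted uniquely aligned reads in GRCm38 exons. The deposited values are raw counts per gene, not normalized, and without molecular identifiers. The intervals of count ratios and the floors therefore cover the counting error of reads only, not that of molecules. Intervals of log2 fold changes rest on the spread between libraries.

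Groups and replicate numbers came from the sample titles. One edgeR 4.0.16 model (R 4.3.3; TMM, robust quasi-likelihood F-test, two-sided) estimated each group's mean from all 12 libraries together, over all genes whose mean normalized count reached 10, and p-values were adjusted by Benjamini-Hochberg over all genes tested (FDR). CPM are given per library or as mean ± SD, with n = 2 unless stated, and SEs are the absolute log2 fold change over the square root of F. Alternatives were RLE scaling, library totals alone, no filter on low counts, FDR alone, DESeq2 1.42.0, the replicate number as a block, only the groups compared, and each library left out, where the lone library of a group is assumed to vary like the other groups. The fits were tested on simulated counts. Of the table's identifiers, 153 had no symbol.

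The members, lists and comparisons were chosen with earlier results of these data known. Named genes were the 5 members, up to 3 called genes per list and comparison with the smallest FDR, Tyk2, and the 5 genes with the highest Pearson's r to Arrdc4 and to Txnip; exceptions are marked, and 2 genes that met a rule are not reported here. The set was chosen on CD8 mutants against CD8 WT, so these contrasts carry no test, nor does Arrdc4 between NK and CD8 cells or between the CD8 mutants. Promoter sequences are from RefSeq; protein sequences were not used here.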

Additional observations from a re-analysis of the deposited data

How the results depend on the processing

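Over the alternatives, 757 of the recomputed values kept their direction and their side of the threshold or, where there was no test, stayed within the replicate spread, 62 lost and 15 gained a call, 25 changed sign and 19 others moved by more than replicate spread or in count. With library totals alone, Txnip in NK KO against WT was 0.0343 in place of -0.06. Without the filter on low counts, 1 member, Txnip, was called in KE NK against CD8, and calls over all genes rose from 0 to 195 in NK KO against WT, 256 in NK KE against WT, 96 in NK KO against KE, 82 in CD8 KO against KE and 98 in KO against KE averaged over cell types. They rose from 103, 119 and 109 to 537, 524 and 498 in WT, KO and KE NK against CD8, from 7 to 124 in CD8 KO against WT, from 11 to 185 in CD8 KE against WT, and from 602 to 1231 in the average over genotypes. DESeq2 called 823, 804, 803, 234, 328 and 1584 genes in these 6 comparisons. Fits to only the groups compared called 3, 28, 62, 61, 1 and 0 genes in NK KO and KE against WT, KO and KE NK against CD8, and CD8 KO and KE against WT. The cause was not tested.

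Left out one library at a time, log2 fold changes that changed sign ran as follows. In NK KO against WT, Arrdc1 ran from -0.45 to 0.80 and Txnip from -0.57 to 0.30. In NK KE against WT, Arrdc3 ran from -0.089 to 0.20, Arrdc4 from -1.18 to 0.94 and Txnip from -0.11 to 0.31. Txnip ran from -0.67 to 0.20 in NK KO against KE and from -0.36 to 0.79 in CD8 KO against KE, where Arrdc1 ran from -1.20 to 0.057. Arrdc1 in WT NK against CD8 ran from -0.029 to 1.22. In KO against KE averaged over cell types, Txnip ran from -0.27 to 0.31. Among values without a test, Arrdc4 ran from -1.85 to 0.26 in KE NK against CD8 and from -0.16 to 0.90 in KO against KE averaged over cell types, and in CD8 KO against WT Arrdc1 ran from -0.56 to 0.69 and Txnip from -1.07 to 0.080. The number of members called in NK against CD8 averaged over genotypes ran from 0 to 2.

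The replicate number was the same across groups, but numbered samples did not deviate together. Over 15 pairs of groups the correlation of their deviations was -0.0252 to 0.0379. Whether NK and CD8 libraries of the same number came from the same tumors was not tested. With a replicate block, 0 members were called in NK against CD8 averaged over genotypes in place of 1 (Arrdc3 FDR 0.0542), calls over all genes fell from 7 and 11 to 3 and 3 in CD8 KO and KE against WT and from 109 to 70 in KE NK against CD8, and no other call of a member changed. With 2 libraries a group, differences smaller than the spread between libraries could not be seen.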
